A study of Homo sapiens with 6 samples.

Results

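The proteins of the cytosolic ribosome are encoded by a family of genes, taken here as every gene whose symbol has the form of a large-subunit (RPL) or small-subunit (RPS) protein, or is RPSA, RPLP0, RPLP1 or RPLP2, with a mean raw count of 100 or more over the 6 libraries. Of 60612 genes in the deposited table, 86 fit by name and 81 passed the count threshold, 49 for the large subunit and 32 for the small. The 5 left out were RPS4Y1, RPL39L, RPL3L, RPL10L and RPS4Y2, with mean counts of 5.0 or fewer, while the members nearest to the threshold, RPL26L1, RPL22L1 and RPS27L, averaged 1061, 1501 and 1819 counts. All 81 also passed the filter on low counts, so that every member was tested. Ribosomal protein genes such as FAU, RACK1 and RPL36AL have symbols of another form and are given separately at the end.

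The ribosome joins a small subunit, which reads the mRNA, and a large subunit, which forms the peptide bonds. Most of its proteins are needed in equal numbers, largely from single genes scattered over the genome, and their mRNAs are among the most abundant in dividing cells. Many of these mRNAs begin with a cytosine and a run of pyrimidines, the 5′ terminal oligopyrimidine or 5′TOP motif, through which the kinase mTORC1 and the protein LARP1 set how much of the mRNA is translated and stored.

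RNA sequencing measured U251, an established human glioma line that the labels give as wild type. The 3 treated libraries came from cells given 6-shogaol, a thiol-reactive ketone of dried ginger, at 60 "μm" (read here as micromolar) for 24 h, and the 3 control libraries from cells without it at the same time. Both groups grew in DMEM with serum and antibiotics, and what vehicle the controls received is not given in the sources used here. The labels do not say whether replicates came from separate cultures. P-values therefore speak only to the variation among these 6 libraries, which may be technical.

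The libraries were deep, and most of the astrocytic and neural stem markers looked at were detected, which cannot by itself identify the line. Totals were 43516840 to 55225898 counts in the 6-shogaol libraries and 52132767 to 60018999 in the control libraries, and the lowest count of any member in any library was 914. Astrocytic and neural stem markers VIM, NES, SOX2, SOX9 and CD44 were well detected, GFAP averaged 8.88 CPM (counts scaled to library size with TMM factors) with 6-shogaol and 27.3 CPM in controls, and S100B did not exceed 1.35 CPM. Of these, GFAP (log2 fold change -1.62, adjusted p = 0.0065, edgeR) and NES (-0.42, adjusted p = 0.0484, edgeR) were called lower with 6-shogaol. VIM, SOX2, SOX9, CD44 and S100B were not called. Of the blood and epithelial markers, CD14 had 0.736 to 1.36 CPM over the 6 libraries, CDH1, EPCAM, PTPRC and KRT5 reached at most 0.513, 0.443, 0.266 and 0.115 CPM in a library, and CD3E had 0 counts. Of the neuronal genes, SYT1 was at 56.5 to 71.3 CPM with 6-shogaol and 48.7 to 50.7 CPM in controls, SNAP25 at 2.85 to 3.98 CPM with 6-shogaol and 2.70 to 3.61 CPM in controls, and RBFOX3 at 0.988 CPM or less.

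The start of the transcript is where the family shares a sequence. It is shown here for the 6 members with the smallest p among those whose groups did not overlap. RPLP1 and RPL21, of uneven level, were added by choice, and so were paralogs without the motif. RPL29 and RPS3A, also uneven, are not shown. Windows are 30 bases long, from 15 before the RefSeq start to 15 from it onward on build GRCh38.p14, so that the first transcribed base is the sixteenth letter. Capitals mark the unbroken run of C and T that includes the start. The first 8 members begin with C followed by 4 pyrimidines.
RPSA: tttcctgccgcctgTCTTTTCCgtgctacc
RPS3: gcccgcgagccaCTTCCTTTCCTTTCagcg
RPS13: ttccactctcgCTCTCCTTTCgttgcctga
RPS21: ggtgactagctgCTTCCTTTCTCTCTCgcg
RPL7A: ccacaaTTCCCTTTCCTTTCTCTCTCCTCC
RPL41: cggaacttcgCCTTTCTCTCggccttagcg
RPLP1: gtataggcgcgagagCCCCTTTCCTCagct
RPL21: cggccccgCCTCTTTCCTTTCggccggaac
RPL26L1: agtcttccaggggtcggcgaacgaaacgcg
RPL7L1: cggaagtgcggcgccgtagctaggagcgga
RPS27L: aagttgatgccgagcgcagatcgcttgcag

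These windows lie at chr3:39406705-39406734 on the plus strand for RPSA, chr11:75399503-75399532 plus for RPS3, chr11:17077653-17077682 minus for RPS13 and chr20:62387088-62387117 plus for RPS21. Those of RPL7A, RPL41, RPLP1 and RPL21 lie at chr9:133348203-133348232, chr12:56116618-56116647, chr15:69452803-69452832 and chr13:27251543-27251572, all plus. The paralogs RPL26L1, RPL7L1 and RPS27L begin with G and have no pyrimidine run at the start, at chr5:172958714-172958743 plus, chr6:42879601-42879630 plus and chr15:63157463-63157492 minus. The motif, searched on the transcribed strand only as C and 4 further letters that are each C or T, stood exactly at the start in 43 of the 66 members with a RefSeq promoter (65.2%), against 4.04% of all 27305 promoters. Within 5 bases of the start, it was found in 77.3% of members and 21.1% of all promoters. Genes for the mitochondrial ribosome, a separate machine with its own proteins, had it at the start in 5 of 69 (7.25%). A match or its absence describes only these letters at the RefSeq start.

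Members differed widely in level from one another. On the deposited FPKM scale, which divides by gene length, the mean over all 6 libraries ran from 3.26 FPKM for RPS27L to 640 FPKM for RPS12, with a median of 113 FPKM. The highest were RPS12, a small-subunit head protein, RPL8 (625 FPKM), a protein near the peptide-forming centre, RPS2 (617 FPKM), which lines the mRNA entry, RPL41 (507 FPKM), the smallest ribosomal protein, RPL13A (398 FPKM) and RPL23A (393 FPKM), a protein at the exit of the nascent-chain tunnel. The lowest after RPS27L were RPS29 (8.77 FPKM), RPL7L1 (9.72 FPKM), RPL22L1 (11.6 FPKM), RPL26L1 (14.4 FPKM) and RPL9 (31.0 FPKM).

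The length behind the FPKM values was not that of the mRNA. It was worked out from counts and FPKM with the summed counts as library size, since the library size used for FPKM is not given. On that assumption it was a median of 1.17 times the union of all annotated exons in GENCODE 29. Of 81 members, 76 lay within 10% of that ratio. It was likewise a median of 4.24 times the length of the annotated coding mRNA, and up to 39.3 times. A larger library size behind the FPKM would make these lengths and ratios smaller. RPS29, a small zinc-binding protein of the subunit head, had an mRNA of 296 bases but a length behind FPKM of 11627 bases on the same assumption. It ranked 80 by FPKM and 61 by CPM per kb of mRNA, on which scale it had 344 CPM per kb. On the mRNA scale RPS2 had 1770 CPM per kb and RPL8 had 1653 CPM per kb, and RPS12 stood at rank 24. 6 members, among them RPL37 and RPS27L, have annotated mRNAs over 3 kb, which lowers their value on that scale.

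**Figure D1:**
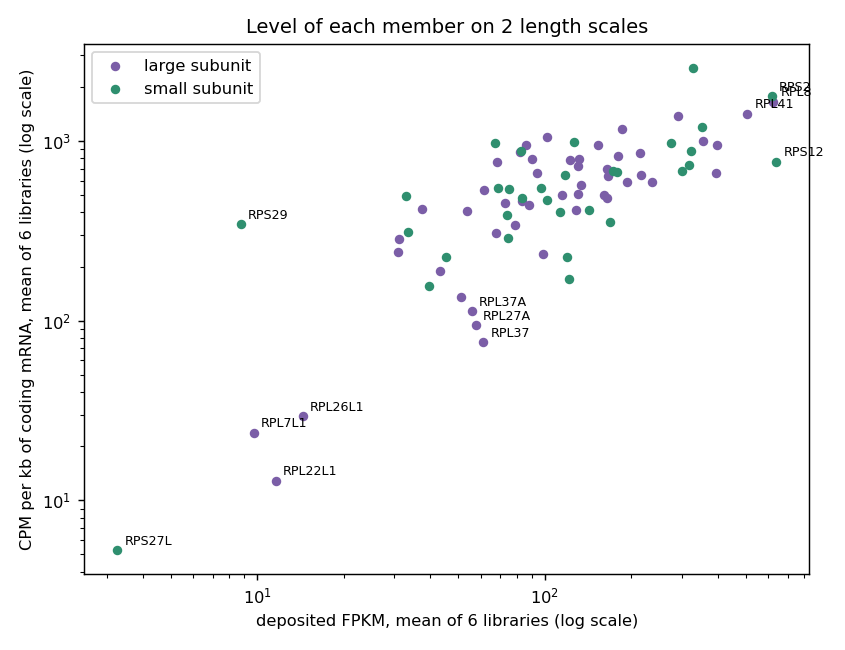
Level of each of the 81 members on 2 scales, both logarithmic: deposited FPKM (horizontal) and CPM per kb of annotated coding mRNA (vertical), means of 6 libraries, coloured by subunit. RPS27L, RPL7L1, RPL22L1 and RPL26L1 lie lowest on the vertical scale, and RPS29 lies far left of members with a like vertical value.

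The members named as paralogs of another ribosomal protein were the least abundant. RPL26L1, RPL22L1, RPL7L1 and RPS27L were the lowest 4 per kb of mRNA and also per kb of coding sequence, where they had 45.7, 77.0, 117 and 135 CPM per kb. Each differs in coding sequence from its partner. RPL26L1 is 84.1% identical to RPL26, RPS27L 77.8% to RPS27, RPL22L1 65.4% to RPL22, and RPL7L1 54.0% to RPL7. The longest identical run in these pairs was 20 bases. The first 60 coding bases from GENCODE 29 show how the closest of these pairs and the pair of RPS27 and RPS27L differ, with capitals at the mismatches, 12 in the pair of RPL26 and 18 in that of RPS27.
RPL26: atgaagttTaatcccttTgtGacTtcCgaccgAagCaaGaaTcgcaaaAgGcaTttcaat
RPL26L1: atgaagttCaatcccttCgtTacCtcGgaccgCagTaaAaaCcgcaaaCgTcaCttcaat
RPS27: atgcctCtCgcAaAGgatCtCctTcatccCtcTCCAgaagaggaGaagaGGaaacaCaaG
RPS27L: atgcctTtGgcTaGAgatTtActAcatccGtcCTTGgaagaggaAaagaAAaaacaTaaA

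None of these 4 paralogs was called by edgeR, with 0 of 4 also at an unadjusted p under 0.05 and by DESeq2. RPS27L had 29.9, 37.6 and 33.5 CPM in 6-shogaol libraries 1 to 3 and 31.3, 36.5 and 35.4 CPM in control libraries 1 to 3. The values of the groups overlapped. RPL7L1 had 62.4, 119 and 123 CPM with 6-shogaol and 64.5, 84.2 and 86.5 CPM in controls, with replicate 1 the lowest in both groups (log2 fold change 0.37, SE 0.26). This value was 0.62 without 6-shogaol replicate 1 (adjusted p = 0.0610, edgeR) and 0.21 without 6-shogaol replicate 3. RPL26L1 had a log2 fold change of -0.17 (adjusted p = 0.452, edgeR). RPL22L1 averaged 28.2 ± 1.61 CPM with 6-shogaol and 28.2 ± 3.10 CPM in controls (SD, n = 3 each), a log2 fold change of 0.00 (SE 0.11).

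Between the groups, 2 of the 81 members were called, both higher with 6-shogaol, and none was called lower. That is 2.47% of members, where edgeR's quasi-likelihood test with Benjamini-Hochberg adjustment over 19279 genes called 3.38% of all tested genes at 0.05, 1.67% higher and 1.71% lower. DESeq2 called 3 members higher, against a background of 5.05%, and 2 lower, against a background of 5.20%, over the 15217 genes to which it gave an adjusted p. At an unadjusted p under 0.05, 11 members were higher and 6 lower, or 13.6% and 7.41%, against 10.4% and 9.95% of all genes. The share of members called was thus not above the background over both directions by edgeR, nor in either direction by DESeq2. Among higher calls alone, edgeR's 2.47% of members, which is 2 genes, lay above the 1.67% of all genes. It did not lie above the share among the 2092 other genes at 100 CPM or more. Of these, edgeR called 3.73% higher and 5.35% lower, and DESeq2 called 6.84% and 10.18%. At an unadjusted p under 0.05, 334 of them were higher and 393 lower. Each of these is a larger share than that of the members.

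The estimated changes were small. The median log2 fold change of the members was 0.03, beside 0.00 over all genes tested, and 53 members lay above 0 and 28 below. The estimates ran from -0.49 for RPL41 to 0.42 for RPLP1, or 0.711-fold to 1.34-fold. In 49 members the estimate was under 1.1-fold in either direction, and in 71 the whole 95% interval lay within 1.5-fold either way. 10 intervals reached beyond 1.5-fold, and that of RPL29, from -1.01 to 0.41, was the only one to reach beyond 2-fold. CPM are relative to the rest of each library, so that fewer ribosomal protein transcripts and more of all others cannot be told apart, and neither can fewer cells of a type and less RNA per cell.

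**Figure D2:**
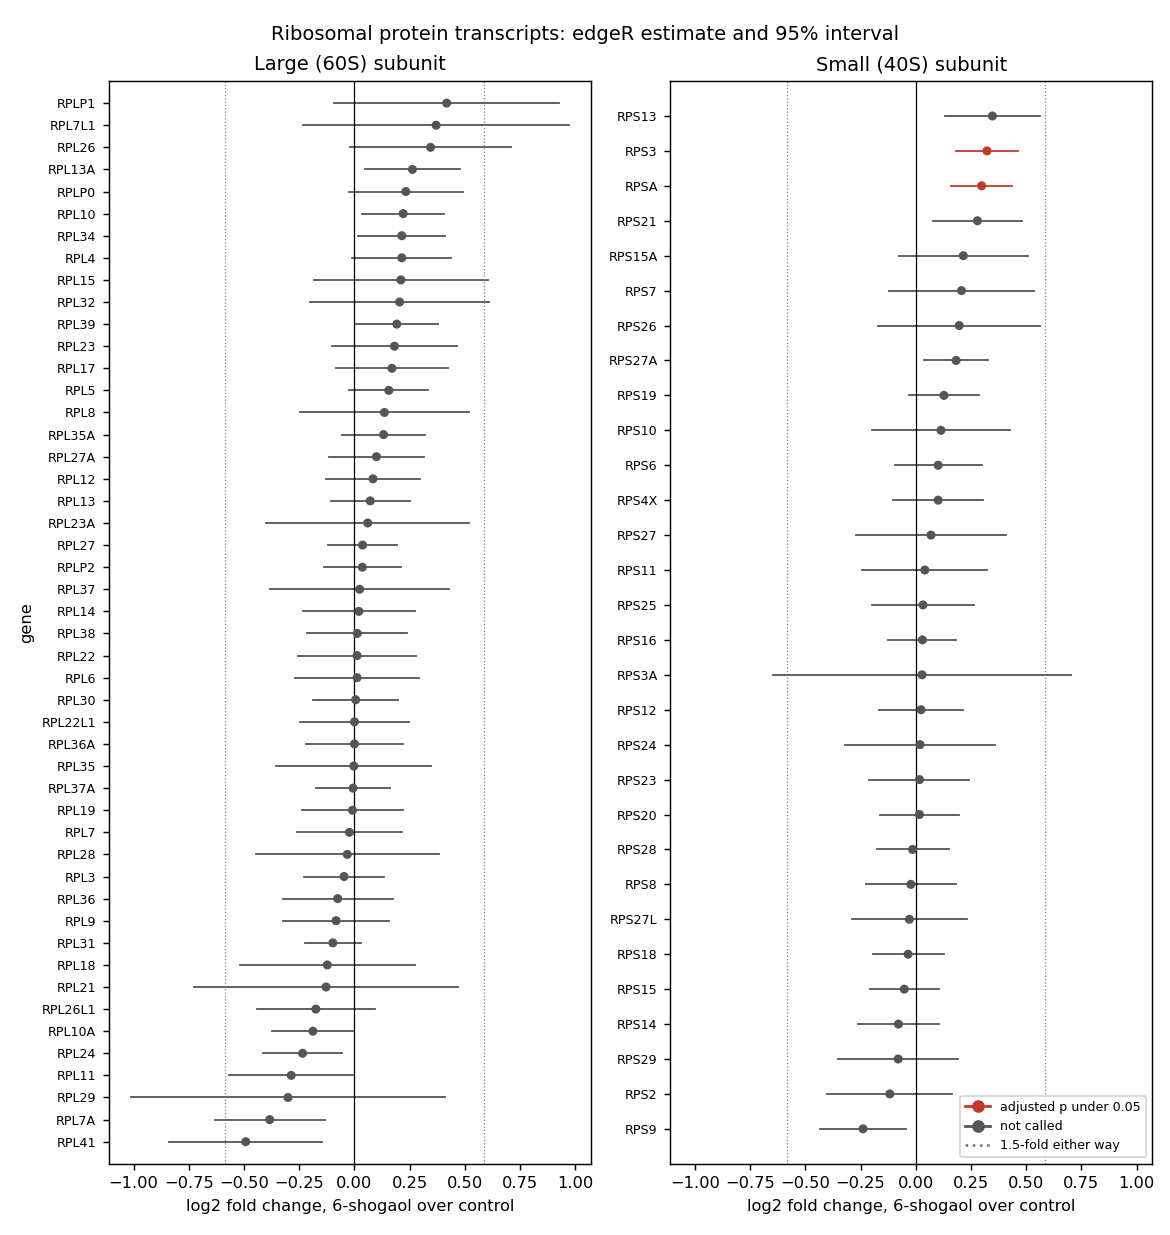
Log2 fold change of 78 members, 6-shogaol over control, with its 95% interval from edgeR (n = 3 libraries each), large-subunit genes on the left and small-subunit genes on the right. RPS3 and RPSA are the 2 called genes, and most intervals include 0 and stay within the dotted 1.5-fold lines.

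Both genes that rose encode small-subunit proteins. RPSA, which sits at the back of the small subunit and is also known as the laminin receptor, had 837, 907 and 897 CPM in 6-shogaol libraries 1 to 3 and 740, 706 and 702 CPM in control libraries 1 to 3. Every treated library lay above every control, and RPSA rose by 0.30 on the log2 scale (SE 0.06, adjusted p = 0.0474, edgeR). The gene has 74 named pseudogenes, whose summed counts came to 6.87% of its own. Adding them gave a mean of 939 CPM with 6-shogaol and 767 CPM in controls.

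RPS3, a protein of the mRNA entry channel that is also known as a DNA repair nuclease and is ubiquitinated when ribosomes stall, rose as well. It had 502, 534 and 546 CPM in 6-shogaol libraries 1 to 3, against 412, 423 and 429 CPM in control libraries 1 to 3. The groups did not overlap, and the log2 fold change was 0.32 (SE 0.06, adjusted p = 0.0378, edgeR). Its pseudogene counts came to 0.00356% of its own. Both calls were close to the threshold: leaving out any library other than 6-shogaol replicate 1 lost them, with adjusted p up to 0.149 for RPS3 and 0.181 for RPSA and log2 fold changes of at least 0.30 and 0.27.

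Further small-subunit genes had all 3 treated values above all 3 controls without passing the test. RPS13, which lies near the bridge between the subunits, had 182, 219 and 224 CPM in 6-shogaol libraries 1 to 3 and 159, 161 and 172 CPM in control libraries 1 to 3, a log2 fold change of 0.35 (SE 0.09, adjusted p = 0.0937, edgeR). DESeq2 called it. RPS21 had 138, 155 and 160 CPM with 6-shogaol and 117, 123 and 135 CPM in controls (log2 fold change 0.28, adjusted p = 0.129, edgeR). In both genes the gap between the groups was narrow.

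Counted over the family, groups did not overlap in 11 members that were higher with 6-shogaol (13.6%) and in 6 that were lower (7.41%), where 14.0% and 13.9% of all tested genes did so. Of the 2092 other genes at 100 CPM or more, 391 were higher and 466 lower without overlap, which are larger shares than those of the members. By subunit, 7 of the 32 small-subunit genes were higher in this way and 1 was lower, and 4 of the 49 large-subunit genes were higher and 5 lower. The difference between the subunits was not tested. The median log2 fold change was 0.02 for the large subunit and 0.03 for the small, and the summed counts of the large-subunit genes were 1.57 ± 0.0509 times those of the small in 6-shogaol libraries and 1.56 ± 0.0397 times in control libraries (SD, n = 3 each).

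The lowest fold changes belonged to the large subunit. RPL41, the shortest of these proteins, had 506, 598 and 556 CPM in 6-shogaol libraries 1 to 3 and 893, 836 and 605 CPM in control libraries 1 to 3. All treated values were lower, but control 3 lay next to them, and the log2 fold change of -0.49 (SE 0.15) did not pass (adjusted p = 0.122, edgeR). Without control replicate 3 it was -0.64 (adjusted p = 0.0448, edgeR), and DESeq2 called it on all 6 libraries.

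RPL7A, a protein bound early in large-subunit assembly whose introns hold 4 snoRNA genes, had 478, 531 and 486 CPM in 6-shogaol libraries 1 to 3 and 556, 730 and 664 CPM in control libraries 1 to 3. The treated values were the lower ones in every library, with a log2 fold change of -0.38 (SE 0.11, adjusted p = 0.102, edgeR), and DESeq2 called it. RPL24, which bridges the subunits, averaged 251 ± 21.5 CPM with 6-shogaol and 296 ± 8.01 CPM in controls (SD, n = 3 each), and RPS9, a small-subunit protein, averaged 351 ± 32.9 CPM with 6-shogaol and 414 ± 20.1 CPM in controls. Neither passed (adjusted p = 0.147 and 0.167, edgeR).

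**Figure D3:**
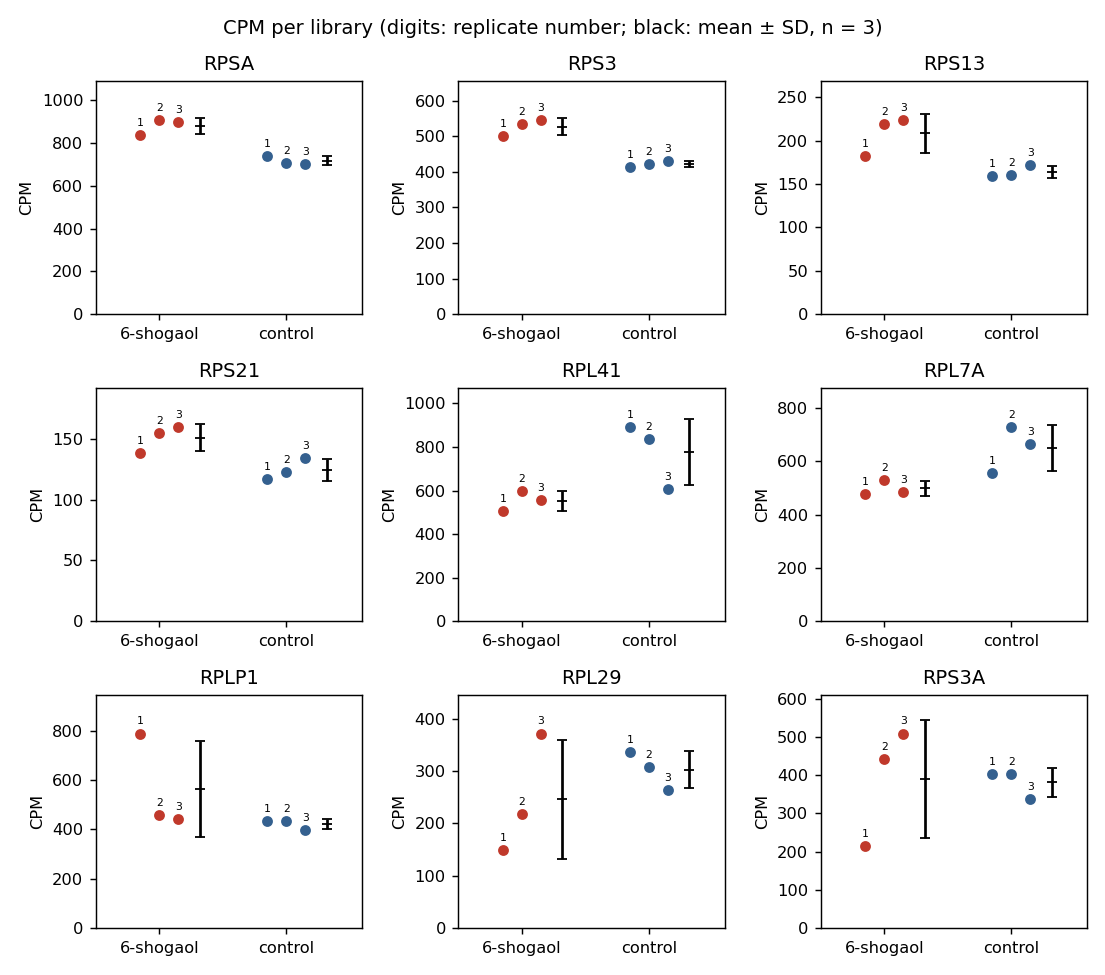
CPM of 9 members in each library, 6-shogaol on the left of each panel and control on the right, with replicate numbers above the points and the mean ± SD (n = 3) in black. RPSA and RPS3 are separated by more than their spread, whereas 1 or more treated libraries of RPLP1, RPL29 and RPS3A lie far from the others.

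The proteins of the P-stalk, which calls GTPase elongation factors to the large subunit, gave no call. RPLP1 had 788, 458 and 442 CPM in 6-shogaol libraries 1 to 3 and 433, 434 and 396 CPM in control libraries 1 to 3. Its log2 fold change of 0.42 (SE 0.22, adjusted p = 0.336, edgeR), the highest of the family, rested on 6-shogaol replicate 1, without which it was 0.10. The partner RPLP2 was at 379 ± 27.0 CPM with 6-shogaol and 370 ± 17.2 CPM in controls (SD, n = 3 each), and RPLP0, the stalk's base, had a log2 fold change of 0.23 (adjusted p = 0.291, edgeR). RPL10A, counted with this list although it forms the L1 stalk on the other side of the large subunit, had 394, 388 and 397 CPM with 6-shogaol and 489, 449 and 406 CPM in controls, so that every treated value was lower (log2 fold change -0.19, adjusted p = 0.234, edgeR). Of the 5 listed proteins, 0 were called by edgeR or DESeq2. At an unadjusted p under 0.05, 0 were higher and 1, RPL10A, was lower, while the estimates of the other 4 lay above 0.

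RPL5 and RPL11 travel with the 5S rRNA and, when unassembled, bind the ubiquitin ligase MDM2. They had values on opposite sides of 0. RPL11 had 537, 422 and 410 CPM in 6-shogaol libraries 1 to 3 and 602, 563 and 504 CPM in control libraries 1 to 3, a log2 fold change of -0.29 (adjusted p = 0.241, edgeR), and RPL5 had 0.16 (adjusted p = 0.309, edgeR). In both genes the groups overlapped. MDM4, a partner of MDM2, had 8.44, 20.5 and 8.68 CPM with 6-shogaol and 7.27, 51.7 and 7.67 CPM in controls, so that library 2 of each group stood apart (adjusted p = 0.626, edgeR).

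Around the tunnel through which the new chain leaves, 8 members had a median log2 fold change of 0.12 and 0 were called by edgeR or DESeq2. RPL39, a small protein of the tunnel wall, was the only one of them at an unadjusted p under 0.05, with 502, 497 and 490 CPM with 6-shogaol and 440, 473 and 390 CPM in controls (log2 fold change 0.19, adjusted p = 0.234, edgeR). RPL26 at the tunnel's rim had 343, 469 and 468 CPM with 6-shogaol and 396, 305 and 306 CPM in controls, so that library 1 of each group stood against the others. Among the 4 small-subunit proteins that are ubiquitinated on stalled ribosomes, RPS3 was called and RPS2, RPS10 and RPS20 had log2 fold changes of -0.12, 0.11 and 0.02, of which those of RPS2 and RPS20 changed sign when 1 library was left out. Of 11 proteins of the small-subunit head and mRNA entry, RPS3 was the only one called.

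Replicates of the members spread more than those of other abundant genes. The median coefficient of variation was 8.92% in 6-shogaol libraries and 8.39% in control libraries, beside 6.76% and 5.03% over 2092 other genes at 100 CPM or more. It exceeded 20% in 9 members with 6-shogaol and in 2, RPL32 and RPL8, in controls. RPL29 was the least even, with 149, 217 and 372 CPM in 6-shogaol libraries 1 to 3 and 336, 309 and 264 CPM in control libraries 1 to 3, and its log2 fold change of -0.30 (SE 0.30) was -0.04 without 6-shogaol replicate 1 and -0.73 without 6-shogaol replicate 3. RPS3A, a small-subunit protein at the mRNA exit, had 216, 444 and 510 CPM with 6-shogaol and 405, 403 and 339 CPM in controls. Its log2 fold change of 0.03 (SE 0.29) therefore stands for values on both sides of the controls, and it ran from -0.21 to 0.32 when 1 library was left out.

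The low values of many members fell in the same libraries. 6-shogaol replicate 1 was the lowest treated library for 60 of 81 members (74.1%), against 37.0% of all tested genes, and control replicate 3 was the lowest control for 54 (66.7%), against 34.9%. The median over members of log2(CPM + 0.5) minus the control mean was -0.06, 0.14 and 0.10 in 6-shogaol libraries 1 to 3 and 0.05, 0.04 and -0.09 in control libraries 1 to 3. The members together took 3.78, 4.14 and 4.10% of all counts in the 6-shogaol libraries and 3.99, 3.93 and 3.57% in the control libraries. The means were 4.01 ± 0.196% and 3.83 ± 0.228% (SD, n = 3 each), and the difference of 0.18 percentage points was smaller than the SD of either group.

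The results without either of these libraries are as follows. Both were picked because member values were lowest in them. The direction in which leaving them out moves the share and the median was therefore fixed beforehand. Without 6-shogaol replicate 1 the share of counts differed by 0.29 points and the median log2 fold change was 0.10, and without control replicate 3 they were 0.05 points and -0.01. Without 6-shogaol replicate 1, edgeR called 7 members higher, among them RPSA, RPS3, RPS13, RPL13A, RPL10 and RPL4, and called RPL24 and RPS9 lower. Over both directions, that fit called 5.07% of all 19953 genes tested, so that the background rose too. The 7 members called higher and 2 called lower, of 81, are a larger share than that. The share among other genes at 100 CPM or more is not given for that fit.

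**Figure D4:**
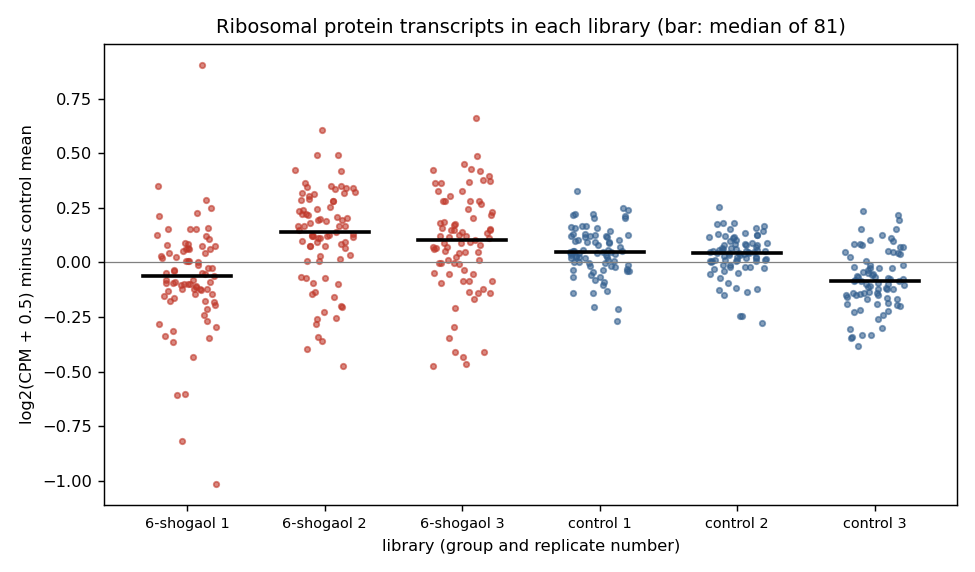
Log2(CPM + 0.5) of each member minus its mean in controls, 1 point per gene, for the 3 6-shogaol libraries on the left and the 3 control libraries on the right, with the median of 81 as a bar. The medians of 6-shogaol 1 (-0.06) and control 3 (-0.09) are the only ones below 0.

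Other short or abundant transcripts were measured beside this. Genes encoded in mitochondrial DNA took 8.34, 10.5 and 9.75% of counts in 6-shogaol libraries 1 to 3 and 10.7, 10.5 and 9.81% in control libraries 1 to 3, and 913 other protein-coding genes with mRNAs under 1 kb took 7.71, 8.30 and 8.07%, and 8.71, 8.49 and 7.91%. Both sums were lowest in the same 2 libraries within their groups as the ribosomal protein share. Their part in the spread of the members was not tested. Within groups, the mitochondrial ribosomal proteins were even by comparison, at 0.301, 0.303 and 0.300% of counts with 6-shogaol and 0.292, 0.292 and 0.288% in controls. Every treated share lay above every control share, and the difference in means of 0.0110 percentage points was not tested. Of the 78 genes for these proteins, edgeR called 0, DESeq2 called 2 higher and 2 lower, and 6 were higher and 9 lower at an unadjusted p under 0.05, with a median log2 fold change of -0.01.

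Members have many processed pseudogenes, copies of the mRNA that can take up its reads. The table holds 1237 named ones, of which 503 had any count, 190 were tested and 0 were called by edgeR, with 4 higher and 8 lower at an unadjusted p under 0.05 and 0 higher and 3 lower by DESeq2. In 12 members their counts came to 10% or more of the gene's own, led by RPS2 (48.4%), RPL21 (47.9%), RPL9 (39.8%) and RPL7 (26.2%), whose values are uncertain for that reason.

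RPL21 and its pseudogenes are set side by side. The gene itself had 144, 295 and 165 CPM in 6-shogaol libraries 1 to 3 and 199, 234 and 227 CPM in control libraries 1 to 3, and its 72 pseudogenes together 131, 68.5 and 157 CPM, and 81.3, 100 and 68.7 CPM. The treated library highest for the gene was lowest for the copies. The sums were 275, 363 and 322 CPM with 6-shogaol and 281, 334 and 296 CPM in controls, and the treated coefficient of variation was 13.8% for the sum and 40.5% for the gene alone. In controls the sum, from 281 to 334 CPM, was no more even than the gene alone, from 199 to 234 CPM. Exons of 13 members overlapped those of other detected genes over 10% or more of their length, led by RPL10 (52.7%), RPS10 (39.4%, with the readthrough gene RPS10-NUDT3) and RPL17 (27.5%, with RPL17-C18orf32). Without a stated strand setting, these counts can be mixed.

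**Figure D5:**
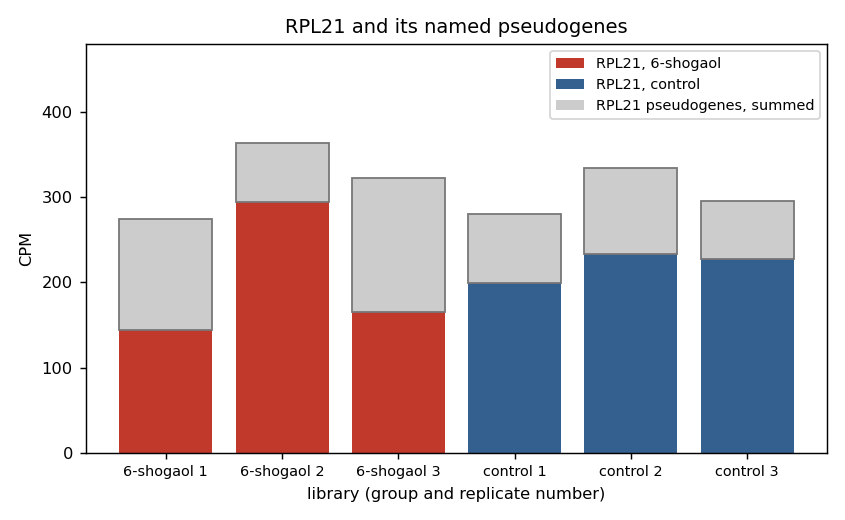
CPM of RPL21 (coloured) and the sum of its 72 named pseudogenes (grey) in each library, 6-shogaol on the left and control on the right. The full bars, from 275 to 363 CPM, are more even than their coloured parts, which run from 144 to 295 CPM.

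The start motif and resident snoRNA genes are set beside the fold changes as descriptions. The 43 members with the motif exactly at the RefSeq start had a median log2 fold change of 0.02, with 29 above 0 and 14 below. The median was 0.04 for the 23 members with a RefSeq promoter but no motif at its start, with 13 above 0 and 10 below. Some of the 23 carry the motif nearby, since 51 of the 66 had it within 5 bases of the start. For the 15 members with no RefSeq promoter the median was 0.04, with 11 above 0 and 4 below. Members with a snoRNA gene inside numbered 28 of 81 (34.6%), beside 1.42% of 13682 other tested protein-coding genes, and together they held 60 snoRNA genes. Their median was 0.08, and that of the other members 0.01. The 81 genes lay on 21 chromosomes, 12 of them on chromosome 19.

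Genes that make and control ribosomes are given from lists chosen by function. Over all genes tested, edgeR called 1.67% higher and 1.71% lower, DESeq2 5.05% and 5.20% of those it gave an adjusted p, and an unadjusted p under 0.05 in edgeR held for 10.4% and 9.95%. The lists were chosen with earlier results of these data known, so that a share above these is a description. Of 4 ribosomal protein genes with symbols of another form, edgeR and DESeq2 called 0, and 1 was higher at an unadjusted p under 0.05: FAU, whose product is cleaved to a ubiquitin-like protein and RPS30, at 134 ± 7.29 CPM with 6-shogaol and 118 ± 7.07 CPM in controls (SD, n = 3 each, log2 fold change 0.18, adjusted p = 0.244, edgeR). Exons of its neighbours MRPL49 and SYVN1 overlap 22.6% of FAU. Of 15 other genes known for 5′TOP mRNAs, 0 were called by either tool, with 6 higher (40%) and 2 lower (13.3%) at an unadjusted p under 0.05 and a median log2 fold change of 0.10. EEF2, the translocation factor, had 4116 ± 72.4 CPM with 6-shogaol and 3585 ± 98.0 CPM in controls (SD, n = 3 each, adjusted p = 0.0875, edgeR). HNRNPA1, a splicing regulator, had 940 ± 39.6 CPM with 6-shogaol and 1096 ± 31.2 CPM in controls (adjusted p = 0.0929, edgeR).

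Of 38 ribosome assembly factors edgeR called 0 and DESeq2 0 higher and 3 lower (7.89%), and 2 were higher (5.26%) and 8 lower (21.1%) at an unadjusted p under 0.05, with a median log2 fold change of -0.06. NOP58, a core protein of box C/D snoRNPs, averaged 40.5 ± 2.90 CPM with 6-shogaol and 53.2 ± 3.99 CPM in controls (SD, n = 3 each, adjusted p = 0.0656, edgeR). RRS1, needed for assembly of the 5S particle, had 12.7, 14.6 and 11.3 CPM with 6-shogaol and 17.2, 17.5 and 19.5 CPM in controls (adjusted p = 0.0863, edgeR). Among the 8 dedicated chaperones that escort single ribosomal proteins, all estimates lay below 0, with a median of -0.24. DESeq2 called 2 lower (25.0%), 3 were lower (37.5%) at an unadjusted p under 0.05, and edgeR called 1 lower (12.5%): RPS19BP1, which binds RPS19, fell to 17.1 ± 1.07 CPM with 6-shogaol, against 25.6 ± 2.55 CPM in controls (log2 fold change -0.58, adjusted p = 0.0387, edgeR). Of 16 genes for RNA polymerase I and its factors, DESeq2 called 2 higher and 2 lower, the same numbers passed at an unadjusted p under 0.05 (12.5% each way), and edgeR called 1 lower (6.25%), the rDNA factor UBTF, which fell to 101 ± 14.1 CPM with 6-shogaol, against 165 ± 5.24 CPM in controls (log2 fold change -0.70, adjusted p = 0.0215, edgeR). Chosen after their values were seen, MYC, a transcription factor that drives ribosome production, averaged 24.3 ± 2.37 CPM with 6-shogaol and 14.4 ± 4.30 CPM in controls (log2 fold change 0.76, adjusted p = 0.104, edgeR), and TAF1D, a subunit of the polymerase's initiation factor, 50.1 ± 3.75 CPM with 6-shogaol and 38.2 ± 3.35 CPM in controls (log2 fold change 0.39, adjusted p = 0.0781, edgeR; SD, n = 3 each). When 1 library was left out, RPS19BP1 lost its call each time (adjusted p up to 0.149, edgeR), and UBTF lost it each time but without 6-shogaol replicate 1 (adjusted p up to 0.103, edgeR).

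Of 14 genes of mTORC1 and its 5′TOP effectors, 3 rose (21.4%) and 0 fell by edgeR and by DESeq2, and 3 were higher and 1 lower at an unadjusted p under 0.05. DDIT4, an inhibitor of mTORC1 also called REDD1, had 631, 733 and 681 CPM in 6-shogaol libraries 1 to 3 and 283, 297 and 316 CPM in control libraries 1 to 3, with no overlap and a log2 fold change of 1.19 (SE 0.08, adjusted p = 0.0021, edgeR). EIF4EBP1, the repressor of cap-dependent initiation that mTORC1 switches off, averaged 95.5 ± 9.87 CPM with 6-shogaol and 61.1 ± 1.27 CPM in controls (log2 fold change 0.64, adjusted p = 0.0168, edgeR). SESN2, a leucine sensor that restrains mTORC1, averaged 72.3 ± 8.97 CPM with 6-shogaol and 48.2 ± 1.82 CPM in controls (log2 fold change 0.58, adjusted p = 0.0345, edgeR; SD, n = 3 each). DDIT4 stayed called when any 1 library was left out (adjusted p up to 0.0255, edgeR). EIF4EBP1 then lost its call each time but without 6-shogaol replicate 1 (adjusted p up to 0.0899, edgeR), and SESN2 each time but without 6-shogaol replicate 1 or 3 (adjusted p up to 0.127, edgeR). Of 22 genes for stalled ribosomes and their quality control, edgeR called 0 and DESeq2 1 higher and 1 lower (4.55% each), and 2 were higher (9.09%) and 3 lower (13.6%) at an unadjusted p under 0.05. LTN1, the ligase that marks stalled chains, had a log2 fold change of 0.38 (adjusted p = 0.0701, edgeR), and HBS1L, a ribosome rescue factor, 0.28 (adjusted p = 0.0768, edgeR). RNA levels do not show how much of these mRNAs was translated, which was not measured.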

How the data were processed

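The authors deposited raw counts per gene for 6 libraries. A second deposited table gives FPKM values, per the file headers, and repeats the counts. Per the labels' protocols, the RNA came from a Trizol extraction and a SMARTER mRNA-Seq kit was used. The submitters' processing notes name the mouse builds GRCm38 and mm10, but all 60612 identifiers are human Ensembl genes. How reads were aligned, counted and assigned to a strand or to several places is not given in the sources used here.

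The test on counts was that of edgeR 4.0.16 in R 4.3.3 (filterByExpr, TMM, glmQLFit and glmQLFTest) over 19279 genes, two-sided, with Benjamini-Hochberg adjustment at 0.05. The standard error is the log2 fold change over the square root of F. CPM are TMM-scaled, and counting error is small at this depth. Lengths, exon overlaps and snoRNA genes came from GENCODE 29 and start windows from RefSeq. The coding mRNA was the shortest transcript with the principal coding length. Alternatives were RLE and upper-quartile scaling, TMM without the family and its pseudogenes, DESeq2 1.42.0, no filter, 1 CPM in 3 libraries, a replicate block, robust moderation, limma 3.58.1 on log2(FPKM + 1) or log2(FPKM + 0.1), and each library left out. The scripts were tested on simulated counts.

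Named members were those called, the 8 highest and 8 lowest log2 fold changes, the 6 highest and lowest FPKM, paralogs, and the 6 smallest p among those with groups apart. From other lists the called genes, or the 2 with the smallest p, were named, and members beyond the rule were chosen after their values were seen. Some named genes are not reported here. The members and lists were chosen with earlier results of these data known.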

Additional observations from a re-analysis of the deposited data

How the results depend on the processing

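Over all genes, the 322 higher and 329 lower calls became 769 and 792 with DESeq2, 183 and 195 with no filter, and 157 and 115 with limma on log2(FPKM + 1) and no filter, and ran from 44 to 480 and from 54 to 532 when 1 library was left out. The 2 members called higher became 0 with no filter and 1 with limma and no filter, and the 0 called lower became 2 with DESeq2. When 1 library was left out, members called higher ran from 0 to 7 and members called lower from 0 to 2, the highest counts in both without 6-shogaol replicate 1, and RPL41 was called lower without control replicate 3. The cause was not tested.

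Same-numbered libraries did not deviate together (correlations of -0.03, 0.06 and -0.04), so the numbers are not taken as pairs. With a replicate block, 3 genes were called higher and 0 lower, and 0 members (adjusted p = 0.141 for RPS3 and 0.182 for RPSA). RPSA kept its direction in 17 alternatives (0.27 to 0.33) and was called in 9, and RPS3 kept it (0.30 to 0.36) and was called in 10. The member median ran from -0.01 to 0.10 and the difference in share from 0.05 to 0.29 points. The SD among control libraries was 0.08 for the median and 0.23 points for the share. Leaving out a library always moves a group mean by less than the SD of that group. These SDs therefore cannot test whether the median and the share are stable. The block also ended the calls of UBTF, RPS19BP1, EIF4EBP1, SESN2 and DDIT4 (adjusted p = 0.109, 0.130, 0.109, 0.130 and 0.0541, edgeR).

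Of 831 values of 49 single named genes under alternatives, 802 kept their direction and 29, in 10 genes, changed sign. When 1 library was left out, MDM4, at -0.83, ran from -1.38 to 0.75, the highest without control replicate 2. The other 9 had values of 0.14 or less in size, with ranges of -0.21 to 0.32 for RPS3A, -0.041 to 0.066 for RPS20, -0.036 to 0.080 for RPS12, -0.21 to 0.018 for RPS2, -0.031 to 0.24 for RPL8, -0.076 to 0.083 for RPL22L1, -0.12 to 0.050 for RPS27L, -0.087 to 0.23 for RPL23A and -0.18 to 0.024 for RPS29. RPS3A was also -0.055 with the block, -0.037 with limma on log2(FPKM + 1), with or without the filter, and -0.038 with limma on log2(FPKM + 0.1), and RPL22L1 -0.00257 with RLE, -0.011 with upper-quartile scaling, -0.00607 with DESeq2, -0.00225 with no filter and -0.00535 at 1 CPM in 3 libraries.

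Depth was not limiting for the members, whose lowest count in a library was 914. The spread between libraries set the precision, with a median standard error of 0.10 on the log2 scale.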
